A study of Mus musculus with 29 samples.

Results

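The 10 genes described here encode subunits of the BAF complex, a mammalian SWI/SNF chromatin remodeller, and were chosen by name as the subunits that are exchanged, or lie beside those exchanged, when neural progenitors become neurons. They are Smarca4, Smarca2, Actl6a, Actl6b, Phf10, Dpf1, Dpf3, Ss18, Ss18l1 and Smarcc2. All 10 of 10 were among the 25239 genes in the count tables, and all 10 were among the 15383 genes with enough counts to be tested. RNA with poly(A) tails was sequenced from the brains of E11.5 mouse embryos. There were 4 groups: wild-type forebrain, forebrain with the hs267-853 enhancer knockout, wild-type midbrain, and midbrain with the hs654 enhancer knockout. Each group was 2 pools of tissue from several embryos, so a replicate is a pool and a value is an average over all the cells dissected. Whether the label hs267-853 means 1 deleted enhancer or 2 could not be established from the labels, and no knockout had a counterpart in the other tissue. The series also holds 21 chromosome-contact samples, which were not analysed here.

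The BAF complex uses the energy of ATP to move or eject nucleosomes, and it is built around a Brg1 (Smarca4) or Brm (Smarca2) ATPase with scaffold and accessory subunits. In dividing neural progenitors it carries BAF53a (Actl6a), BAF45a (Phf10) and SS18. As cells leave the cycle and differentiate, these are replaced by the paralogs BAF53b (Actl6b), BAF45b or BAF45c (Dpf1, Dpf3) and CREST (Ss18l1), and the complex then serves dendrite growth and synaptic genes. In the known circuit, the repressor REST holds down miR-9* and miR-124 in progenitors, and these microRNAs repress Actl6a once REST falls. At this stage midbrain and forebrain both hold proliferating neuroepithelium with a growing share of young neurons.

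The Mir9 genes each give a pair of mature microRNAs. Both are shown because the strand written miR-9* above, now named miR-9-3p, is the one known to act on Actl6a, and its seed differs from that of the other strand. Both sequences are from RefSeq (GRCm38.p6), the capitals mark the seed (bases 2 to 8), and each is encoded by all 3 Mir9 genes. In Mir9-2 they lie at chr13:83738821-83738843 (miR-9-5p) and chr13:83738858-83738879 (miR-9-3p), both on the plus strand. The other microRNA of the circuit is miR-124.
mmu-miR-9-3p: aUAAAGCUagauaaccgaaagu
mmu-miR-9-5p: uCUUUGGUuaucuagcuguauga

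The promoters of Actl6b and Dpf3 are shown because these subunits differed most between the tissues. RefSeq start-site windows were found for 9 of the 10 subunit genes, all but Ss18. Each window runs from 250 bases before the start to 50 after it. The windows were searched on both strands for the CCAAT box, the E-box CAGCTG and the half-sites of the REST element, CAGCACC and GGACAG, motifs picked after earlier results were known. The bases before the start are printed, 5′ to 3′ on the gene's strand, with CCAAT boxes of either strand in capitals. The Actl6b stretch is chr5:137553296-137553545 on the plus strand and the Dpf3 stretch is chr12:83487737-83487986 on the minus strand. The Actl6b window is set on a start site inside the annotated span of the gene, which begins at chr5 position 137553361, so part of the printed stretch lies within that span.
Actl6b promoter: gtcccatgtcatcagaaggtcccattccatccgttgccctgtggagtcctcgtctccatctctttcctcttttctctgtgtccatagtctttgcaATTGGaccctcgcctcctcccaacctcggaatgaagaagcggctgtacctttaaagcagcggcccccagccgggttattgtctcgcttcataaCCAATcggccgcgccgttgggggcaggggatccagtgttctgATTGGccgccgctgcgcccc
Dpf3 promoter: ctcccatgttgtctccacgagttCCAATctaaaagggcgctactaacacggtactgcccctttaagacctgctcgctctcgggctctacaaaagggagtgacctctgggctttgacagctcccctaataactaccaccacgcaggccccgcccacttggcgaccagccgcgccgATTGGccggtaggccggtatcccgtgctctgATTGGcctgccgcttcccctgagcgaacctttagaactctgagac

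CCAAT was found in 3 of the 9 windows (Actl6b, Dpf1 and Dpf3), a share close to the 37.4% of all 32851 windows of the same length. CAGCTG was found in 1 of the 9 (Phf10) and in 16.3% of all windows. The Actl6b window held both half-sites of the REST element on its minus strand, 9 bases apart, between 23 and 44 bases after the start (chr5:137553568-137553589). The 22 bases below are written on the gene's strand, with the half-sites in capitals as their reverse complements.
Actl6b half-sites: CTGTCCggccgcctcGGTGCTG

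Both half-sites on one strand with at most 12 bases between them were present in 37 of the 32851 windows (0.113%), and in no other of the 9 subunit windows. With 2 bases between them, the spacing of the standard REST element, they were in 12 windows (0.0365%) and in 0 of the 9, so the Actl6b pair does not have that spacing. Singly, CAGCACC was in 7.14% of windows and GGACAG in 22.2%. These matches describe the letters only, and binding was not measured.

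The 8 libraries had 9051632 to 18024406 counts in genes, and a count of 0 would allow up to 0.170 to 0.328 CPM (counts scaled to library size, with TMM factors), which covers counting error only. The tissue labels were checked against a regional marker: En2, a midbrain and hindbrain factor, was at 0 counts in all 4 forebrain libraries and 130 to 158 CPM in midbrain. The deleted enhancers give no transcript that would check the genotype labels. A difference is called below where edgeR's quasi-likelihood test gave an adjusted p under 0.05 (Benjamini-Hochberg over all 15383 genes). With 2 pools a group, p-values measure the spread between pools only. Read totals depend on gene length, which was not used here, so levels are compared between groups and never between genes.

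In RefSeq's annotation of GRCm38.p6, the build named mm10 in the submitters' processing notes, the progenitor forms Actl6a and Phf10 lie at chr3:32708546-32726973 and chr17:14944994-14961260. The neuronal forms lie at chr5:137553361-137569582 (Actl6b), chr7:29303952-29317592 (Dpf1), chr12:83213751-83487736 (Dpf3) and chr2:180042483-180070201 (Ss18l1). Smarca4 is at chr9:21616106-21704230, Smarca2 at chr19:26605073-26778321 and Smarcc2 at chr10:128459182-128490591. All are protein-coding genes. Phf10, Ss18 and Dpf3 each overlap 1 other annotated gene and Smarca2 overlaps 3. Whether reads were counted by strand was not given in the sources used here. Reads in the shared stretches may have been set aside as ambiguous or counted with the wrong gene.

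The progenitor subunits differed little across the 8 libraries. Actl6a, an actin-related protein, was at 143 and 147 CPM in wild-type forebrain, 153 and 127 in knockout forebrain, 134 and 138 in wild-type midbrain, and 120 and 129 in knockout midbrain. The 2 knockout forebrain pools spanned almost the whole range of the gene. Phf10, a double PHD finger protein, was at 103 and 100 CPM in wild-type forebrain, 101 and 110 in knockout forebrain, 102 and 98.0 in wild-type midbrain, and 94.7 and 94.2 in knockout midbrain. The Phf10 levels of the wild-type tissues overlapped. Ss18, a subunit best known from the fusion gene of synovial sarcoma, was at 120 and 125 CPM in wild-type forebrain, 116 and 128 in knockout forebrain, 114 in both pools of wild-type midbrain, and 110 and 107 in knockout midbrain. All 4 forebrain libraries lay above all 4 midbrain libraries for Ss18, by a narrow margin.

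Of the neuronal subunits, Dpf3, Actl6b and Ss18l1 were higher in midbrain and Dpf1 was not. Dpf3, which reads modified histone tails, was at 4.00 and 1.93 CPM in wild-type forebrain, 2.27 and 1.11 in knockout forebrain, 16.3 and 15.9 in wild-type midbrain, and 16.8 and 16.3 in knockout midbrain. The forebrain values rest on 17 to 59 counts a library and the midbrain values on 149 to 257. Actl6b, the neuron-specific actin-related subunit, was at 10.2 and 7.51 CPM in wild-type forebrain, 12.5 and 5.70 in knockout forebrain, 16.9 and 15.4 in wild-type midbrain, and 22.5 and 22.2 in knockout midbrain. Its knockout forebrain pools were the highest and the lowest of the 4 forebrain libraries, and knockout midbrain lay above wild-type midbrain.

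Ss18l1, a calcium-responsive transactivator, was at 33.0 and 30.7 CPM in wild-type forebrain, 29.1 and 27.2 in knockout forebrain, 43.5 and 41.8 in wild-type midbrain, and 49.9 and 54.5 in knockout midbrain. It was the 1 subunit of the 10 whose 4 groups were fully separated, in the order knockout forebrain, wild-type forebrain, wild-type midbrain, knockout midbrain. Dpf1 was at 48.1 and 42.5 CPM in wild-type forebrain, 52.6 and 41.0 in knockout forebrain, 41.5 and 38.6 in wild-type midbrain, and 47.9 and 43.7 in knockout midbrain. The Dpf1 levels of the wild-type tissues did not overlap, with forebrain the higher, but those of the knockout tissues did. Over all 8 libraries Dpf1 thus overlapped between tissues, in contrast to the other neuronal forms.

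**Figure D1:**
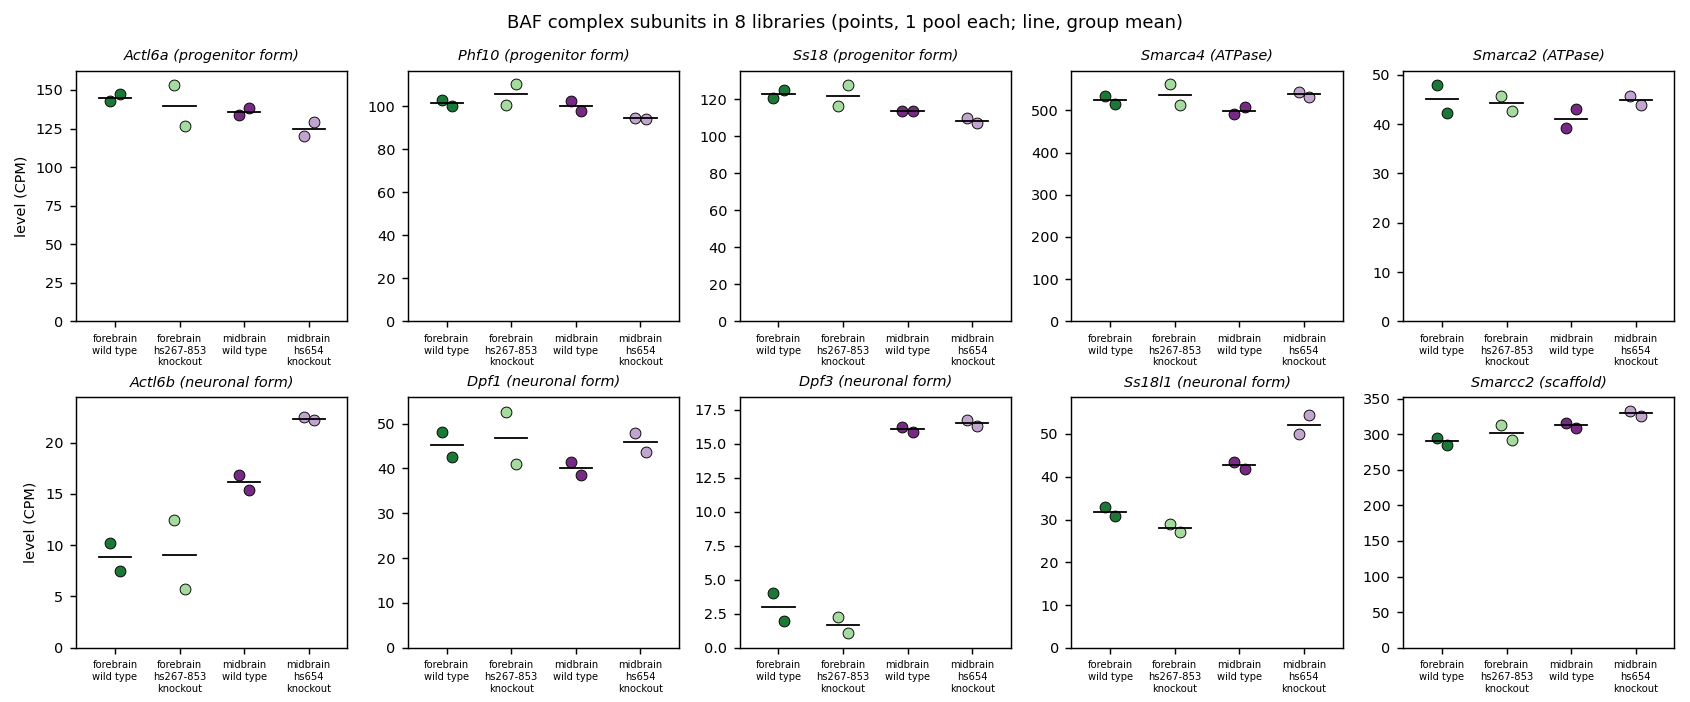
Level of each of the 10 subunits in CPM (vertical axes, each from 0) in the 4 groups; points are single pools and lines are means of 2 pools. Actl6b, Dpf3 and Ss18l1 lie lower in every forebrain library than in any midbrain library, Dpf3 at 1.11 to 4.00 against 15.9 to 16.8 CPM, while Smarca4, Smarca2, Smarcc2, Actl6a, Phf10 and Dpf1 overlap between tissues.

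The ATPases and the scaffold were near level. Smarca4, the main ATPase of neural progenitors, was at 534 and 515 CPM in wild-type forebrain, 562 and 511 in knockout forebrain, 491 and 507 in wild-type midbrain, and 543 and 532 in knockout midbrain. Smarca2, the alternative ATPase, was at 48.0 and 42.3 CPM in wild-type forebrain, 45.7 and 42.7 in knockout forebrain, 39.3 and 43.0 in wild-type midbrain, and 45.8 and 43.9 in knockout midbrain. Both ATPases overlapped between the tissues when all 8 libraries were set side by side. Smarcc2 (BAF170), a scaffold protein with the paralog Smarcc1, was at 294 and 285 CPM in wild-type forebrain, 313 and 291 in knockout forebrain, 316 and 309 in wild-type midbrain, and 333 and 326 in knockout midbrain. The highest forebrain pool for Smarcc2 lay between the 2 wild-type midbrain pools.

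In wild-type embryos, 3 of the 10 subunits were lower in forebrain than in midbrain and 0 were higher, where 29.6% of all genes tested were called, 14.3% higher and 15.3% lower. A share of 3 in 10 is close to that of genes at large. The 3 called were among the 4 neuronal forms, and whether neuronal forms were called more often than the other subunits was not tested. Dpf3 was 5.33-fold lower in forebrain (log2 difference -2.41, SE 0.284, adjusted p = 3.4e-05 by edgeR's quasi-likelihood test). Actl6b was 1.82-fold lower (log2 difference -0.86, SE 0.268, adjusted p = 0.0273 in the same edgeR fit). Ss18l1 was 1.34-fold lower (log2 difference -0.42, SE 0.0961, adjusted p = 0.00522 in the same edgeR fit). In pooled tissue, fewer cells of a type and less RNA per cell cannot be told apart.

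The other 7 subunits did not pass the threshold between the wild-type tissues. The 3 progenitor forms had log2 differences of 0.096 (Actl6a), 0.020 (Phf10) and 0.11 (Ss18), and their 95% intervals together ran from -0.13 to 0.27. Dpf1 had a log2 difference of 0.18 with an interval of -0.082 to 0.44, which lies above the log2 differences of the other 3 neuronal forms. Smarca4, Smarca2 and Smarcc2 had log2 differences of 0.071, 0.14 and -0.11. The median over the 4 neuronal forms was -0.64 and that over the 3 progenitor forms 0.096, beside 0.0012 over all genes tested.

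Single pools decided part of this. Dpf3 was 8.27-fold lower without wild-type forebrain replicate 1 and 4.00-fold lower without wild-type forebrain replicate 2. Without wild-type forebrain replicate 2, Dpf3 was the 1 subunit of the 10 still called (19.0% of all genes), Actl6b was at -0.67 (adjusted p = 0.189 by edgeR) and Ss18l1 was at -0.37 (adjusted p = 0.0535 by edgeR). Actl6b also missed the threshold without wild-type midbrain replicate 1 (-0.80, adjusted p = 0.129 by edgeR), without wild-type midbrain replicate 2 (-0.92, adjusted p = 0.0603 by edgeR) and without knockout midbrain replicate 2 (-0.86, adjusted p = 0.0503 by edgeR).

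The knockout pools give a second comparison of the tissues in separate libraries, although here a different enhancer was deleted in each tissue. Again 3 of the 10 subunits were lower in forebrain and 0 were higher, where 29.4% of all genes were called, 14.6% higher and 14.8% lower. These were Dpf3, 9.56-fold lower (log2 difference -3.26, SE 0.305, adjusted p = 4.3e-06 by edgeR), Actl6b, 2.43-fold lower (-1.28, SE 0.262, adjusted p = 0.00246 by edgeR), and Ss18l1, 1.85-fold lower (-0.89, SE 0.0966, adjusted p = 1.7e-05 by edgeR). The called subunits were those called between the wild-type tissues. The progenitor forms had log2 differences of 0.17 (Actl6a), 0.16 (Phf10) and 0.17 (Ss18), and Dpf1 had 0.031. None of these 4 passed the threshold, with adjusted p from 0.0743 to 0.878 by edgeR.

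The count in the knockout tissues turned on the forebrain pools. Without knockout forebrain replicate 1 the call was made for 6 subunits (27.1% of all genes), with Phf10 (0.23) and Ss18 (0.24) added as higher in forebrain and Smarcc2 (-0.18) added as lower. Without that pool Dpf3 was 14.7-fold lower and Actl6b 3.91-fold lower, against 7.25-fold and 1.78-fold without knockout forebrain replicate 2. Without knockout forebrain replicate 2 the call was made for 4 subunits (26.4% of all genes), with Actl6a added as higher (0.30, adjusted p = 0.0055 by edgeR). Knockout forebrain replicate 1 also stood apart in cell type markers: the summed level of the 5 mesenchymal genes was 626 CPM there and 911 to 1215 CPM in the other forebrain libraries. The part of that pool's makeup in the subunit values was not tested.

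The groups of 2 pools did not overlap for 8 of the 10 subunits between the wild-type tissues, beside 65.9% of all genes tested, and for 6 of 10 between the knockout tissues, beside 64.4%. Across all 8 libraries, 4 of the 10 subunits had forebrain and midbrain values that did not overlap, beside 40.9% of all genes tested. They were Actl6b, Dpf3 and Ss18l1, lower in forebrain (20.3% of all genes), and Ss18, higher in forebrain (20.6% of all genes).

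**Figure D2:**
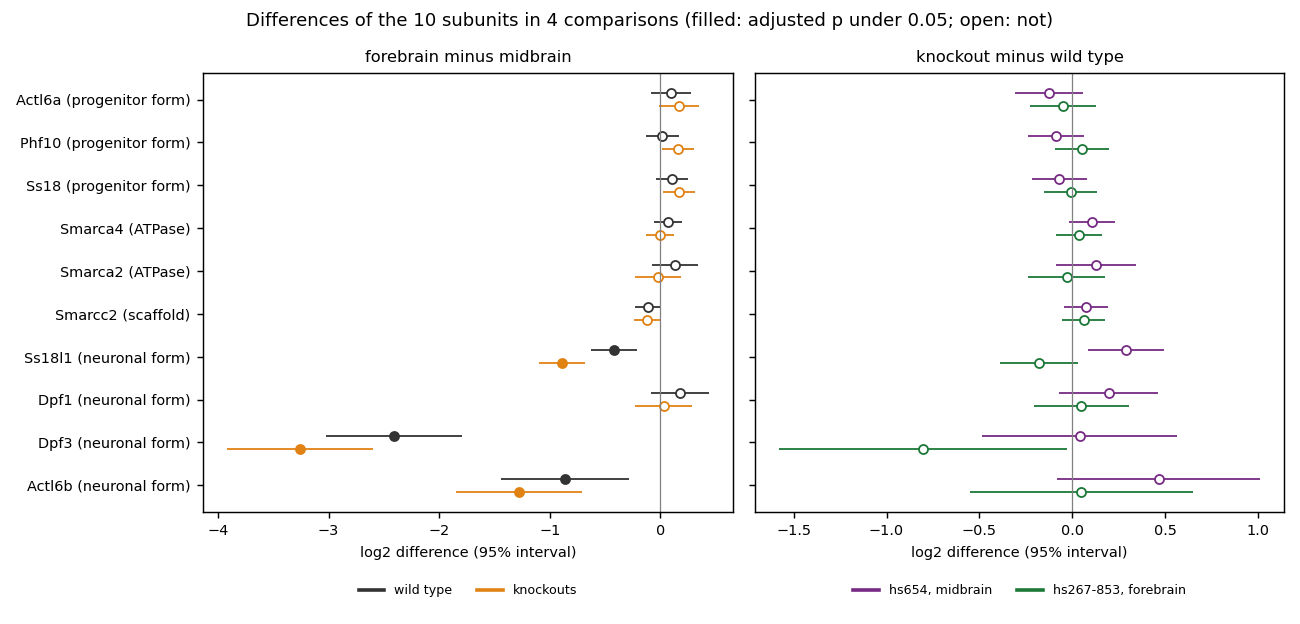
Log2 difference of each subunit (points) with its 95% interval (lines), forebrain minus midbrain in wild type and in knockouts (left) and knockout minus wild type in each tissue (right). On the left Dpf3, Actl6b and Ss18l1 are filled in both colours, at -2.41 and -3.26 for Dpf3; on the right no point is filled.

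Markers of neurons moved the same way as the 3 neuronal subunits. Of 10 neuronal marker genes (Tubb3, Dcx, Elavl3, Elavl4, Map2, Stmn2, Ina, Myt1l, Rbfox3 and Snap25), 9 were lower in wild-type forebrain than in wild-type midbrain and 0 were higher, with a median log2 difference of -0.88 and a range of -1.99 to -0.27. All 10 were lower in knockout forebrain than in knockout midbrain, with a median of -0.997. Their summed level was 1669 to 1923 CPM in wild-type forebrain, 1506 to 2151 in knockout forebrain, 3346 to 3477 in wild-type midbrain and 3665 to 3790 in knockout midbrain, and none of them was at 0. Within forebrain, the 4 libraries stood in one order for this sum, for Actl6b, for Dpf1 and for Smarca4: knockout replicate 1, wild-type replicate 1, wild-type replicate 2, knockout replicate 2. No other subunit, Dpf3 and Ss18l1 included, followed that order. The share of all genes in that order was not counted, so it cannot be read as particular to these subunits. The part of the neuronal share of the tissue in the subunit differences was not tested.

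Markers of dividing cells moved the other way. Of 12 cell cycle genes, 10 were higher in wild-type forebrain and 0 were lower (median log2 difference 0.24), and 11 of 12 were higher in knockout forebrain (median 0.36). Their summed level was 4204 to 4455 CPM in wild-type forebrain, 4147 to 4309 in knockout forebrain, 3760 to 3786 in wild-type midbrain and 3469 to 3524 in knockout midbrain. The 9 neural progenitor markers were mixed, with 4 higher and 3 lower in wild-type forebrain and a median of -0.027. Other cell types in the dissections also differed: 3 of 5 mesenchymal genes were higher in wild-type forebrain, 2 of 4 macrophage genes were lower, 1 of 5 endothelial genes was higher and 0 of 6 erythroid genes were called. The summed macrophage level was 19.3 to 27.0 CPM in wild-type forebrain and 35.5 to 42.3 in wild-type midbrain, and the part of any of these cells in the subunit values was not tested.

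**Figure D3:**
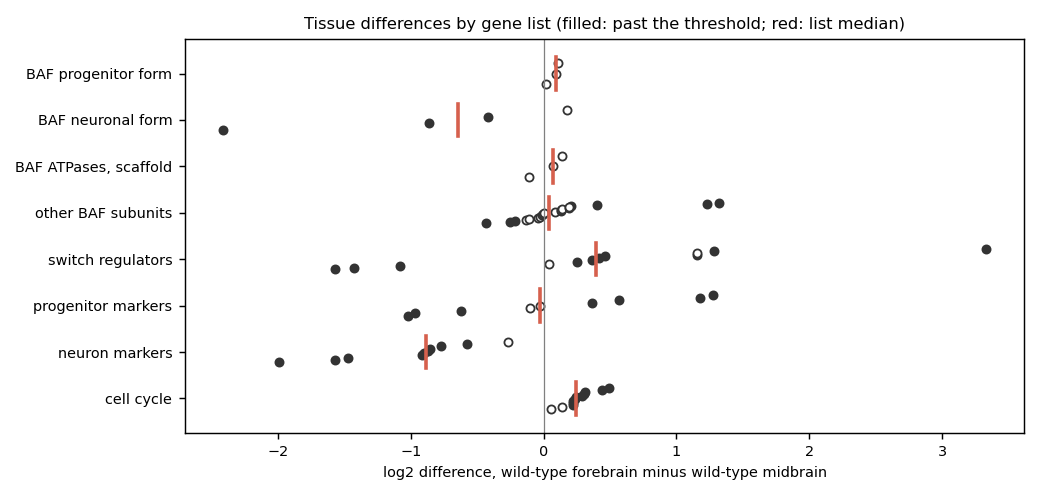
Log2 difference, wild-type forebrain minus wild-type midbrain (horizontal axis), of each tested gene (points, filled where called) in 8 gene lists, with list medians as red bars. Of the 4 neuronal BAF forms 3 are filled and lie left of 0, as are 9 of 10 neuronal markers, while the 3 progenitor forms lie close to 0 and 10 of 12 cell cycle genes lie filled to the right.

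A ratio of each neuronal form to its progenitor counterpart within a library removes the library's scaling. The ratios use counts that are not divided by gene length, so only their changes between libraries can be read. Log2 CPM was taken with a prior count of 2, which pulls low levels, such as Dpf3 in forebrain, towards higher values. The forebrain minus midbrain difference of Dpf3 to Phf10 was -2.49 in wild type and -3.42 in knockouts. With a prior count of 0.5 it was -2.53 and -3.51. The log2 ratio of Actl6b to Actl6a was -3.79 and -4.27 in wild-type forebrain, -3.60 and -4.44 in knockout forebrain, -2.97 and -3.15 in wild-type midbrain, and -2.41 and -2.54 in knockout midbrain. Every midbrain library lay above every forebrain library. In wild-type forebrain Actl6b took 4.85% and 6.64% of the counts of this pair, and in wild-type midbrain it took 10.0% and 11.2%.

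The log2 ratio of Dpf3 to Phf10 was -4.63 and -5.59 in wild-type forebrain, -5.39 and -6.45 in knockout forebrain, -2.64 and -2.61 in wild-type midbrain, and -2.49 and -2.52 in knockout midbrain. The forebrain pools of one genotype differed from each other by more than all 4 midbrain pools did. The log2 ratio of Ss18l1 to Ss18 was -1.86 and -2.02 in wild-type forebrain, -1.99 and -2.23 in knockout forebrain, -1.38 and -1.44 in wild-type midbrain, and -1.13 and -0.97 in knockout midbrain, again without overlap of the tissues. Dpf1 to Phf10 ran from -1.42 to -0.94 in forebrain and from -1.34 to -0.98 in midbrain, so the tissues overlapped. Smarca2 to Smarca4 kept within -3.64 and -3.47 over all 8 libraries.

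**Figure D4:**
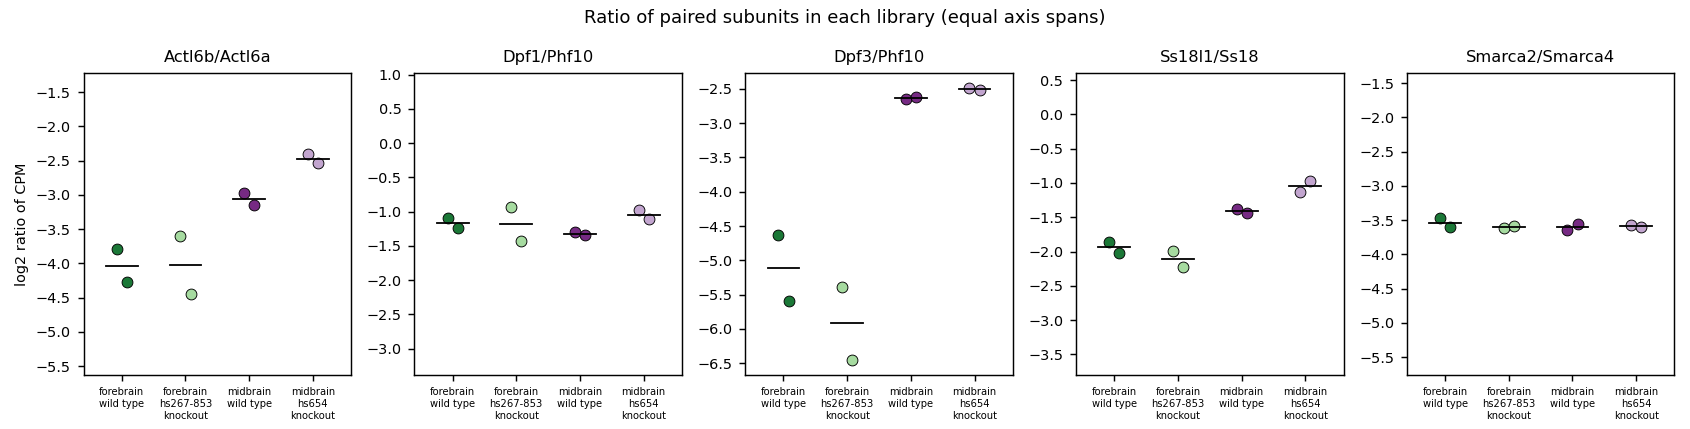
Log2 ratio of CPM (vertical axes, equal spans) of a neuronal to a progenitor subunit, or of Smarca2 to Smarca4, in each pool (points) with the mean of 2 pools (lines). Log2 CPM was taken with a prior count of 2. Actl6b to Actl6a, Dpf3 to Phf10 and Ss18l1 to Ss18 are higher in all 4 midbrain pools, whereas Dpf1 to Phf10 overlaps between tissues and Smarca2 to Smarca4 stays between -3.64 and -3.47.

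The hs654 knockout in midbrain changed no subunit past the threshold. The count was 0 of 10 with edgeR, DESeq2 and limma-voom alike, where edgeR called 0% of all genes tested. At an unadjusted p under 0.05 there was 1 subunit, Ss18l1 (log2 difference 0.29, SE 0.0948, adjusted p = 0.992 by edgeR), and 3.96% of all genes. The pools of the 2 genotypes did not overlap for any of the 10 subunits, where this held for 36.7% of all genes.

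The 4 neuronal forms had positive log2 differences in knockout midbrain: Actl6b 0.46, Ss18l1 0.29, Dpf1 0.19 and Dpf3 0.040. The 3 progenitor forms had negative ones: Actl6a -0.13, Phf10 -0.086 and Ss18 -0.070. Smarca4 (0.11), Smarca2 (0.13) and Smarcc2 (0.075) were positive. These 10 signs were the same under TMM, RLE and upper-quartile scaling. The scalings hardly moved the values (median of the 3 progenitor forms -0.086, -0.076 and -0.091), so this agreement is no support. Over all genes tested, 7641 differences were positive and 7733 negative. Whether the signs of the subunits go together more than those of other genes was not tested. The interval of Actl6b ran from -0.084 to 1.01 and that of Actl6a from -0.31 to 0.057, so these data allow a rise of Actl6b by up to 1.01 on the log2 scale and also none.

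Other markers moved beside these differences, none past the threshold. The 10 neuronal markers all had positive log2 differences in knockout midbrain (median 0.13, range 0.038 to 0.40) and the 12 cell cycle genes all had negative ones (median -0.086). The 5 endothelial genes (median 0.16) and the 5 mesenchymal genes (median 0.17) were all positive, with summed levels of 189 and 229 and of 696 and 998 CPM in wild-type midbrain against 231 and 241 and 940 and 981 CPM in knockout midbrain. Of 4 macrophage genes 2 were positive, and of 9 neural progenitor markers 5. The 6 erythroid genes were all negative (median -0.53), and their summed level was 6246 CPM in wild-type midbrain replicate 1 against 3074 to 3482 CPM in the other 3 midbrain libraries. Without that pool the log2 differences were 0.54 for Actl6b and 0.32 for Ss18l1. The part of these cell types in the subunit values was not tested.

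The hs267-853 knockout in forebrain also changed 0 of the 10 subunits, with edgeR, DESeq2 and limma-voom, where edgeR called 0.0130% of all genes. At an unadjusted p under 0.05 there was 1 subunit, Dpf3 (log2 difference -0.80, SE 0.358, adjusted p = 0.984 by edgeR), and 4.78% of all genes. The pools of the groups did not overlap for 1 of 10 subunits, Ss18l1 (-0.18), beside 31.1% of all genes. The 2 knockout pools were spread more widely than the wild-type ones for 7 of the 10 subunits, all but Dpf3, Ss18l1 and Smarca2. The 95% interval of Actl6b ran from -0.55 to 0.65. That of Actl6a, from -0.23 to 0.13, allows a rise of at most 0.13 on the log2 scale. The 5 mesenchymal genes (median -0.37) and the 4 macrophage genes (median -0.32) all had negative log2 differences in this comparison, none past the threshold. Their summed levels were 911 and 1215 and 19.3 and 27.0 CPM in wild-type forebrain, against 626 and 1043 and 17.9 and 18.8 CPM in knockout forebrain, and their part in the subunit values was not tested.

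The difference between the midbrain and forebrain knockout effects was called for 0 of 10 subunits, with edgeR, DESeq2 and limma-voom, where edgeR called 0.00650% of all genes. Ss18l1 was the 1 subunit at an unadjusted p under 0.05, with effects of 0.29 in midbrain and -0.18 in forebrain (difference 0.47, SE 0.136, adjusted p = 0.996 by edgeR), beside 4.02% of all genes.

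The genes that are known to steer the exchange differed between the tissues. Of 12 regulator genes that could be tested, 7 were higher and 3 lower in wild-type forebrain, where 29.6% of all genes were called. In knockout forebrain 4 were higher and 4 lower, where 29.4% of all genes were called. These genes are not all separate, since C130071C03Rik, Mir9-3hg and Mir124-2hg overlap Mir9-2, Mir9-3 and Mir124a-2. C130071C03Rik was among those lower in knockout forebrain, a call lost in 6 of 16 other settings. Rest, the repressor of neuronal genes, was at 47.0 and 52.6 CPM in wild-type forebrain, 45.1 and 52.0 in knockout forebrain, 38.1 and 36.4 in wild-type midbrain, and 41.2 and 39.8 in knockout midbrain. Its log2 difference between wild-type tissues was 0.42 (SE 0.0994, adjusted p = 0.00677 by edgeR), and 0.34 (adjusted p = 0.0728 by edgeR) without wild-type forebrain replicate 2. Between knockout tissues it was 0.26 and missed the threshold (adjusted p = 0.0708 by edgeR). Ptbp1, an RNA-binding protein that is itself a target of miR-124, was higher in forebrain in both comparisons (0.37 and 0.36), as was Ctdsp1, a phosphatase that works with REST (0.46 and 0.49). Rcor1, a corepressor of REST, was higher by 0.25 and 0.30, and its calls were lost when single pools were left out: wild-type forebrain replicate 1 or 2 or wild-type midbrain replicate 1 in the first comparison, and either knockout midbrain pool in the second. Rcor2 was at 0.041 and 0.15 and passed in neither.

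Poly(A) RNA holds the host transcripts of microRNA genes, not the mature microRNAs, which were not measured. The Mir124 host transcripts were lower in forebrain. Mir124a-1hg was at 41.9 and 40.1 CPM in wild-type forebrain, 41.6 and 36.2 in knockout forebrain, 132 and 112 in wild-type midbrain, and 129 and 124 in knockout midbrain (log2 differences between tissues of -1.57 and -1.70). Mir124-2hg was at 11.9 to 14.9 CPM in the 4 forebrain and 27.5 to 30.0 CPM in the 4 midbrain libraries (-1.08 and -1.09). The row Mir124a-2 was at 2.82 to 3.64 CPM in forebrain and 7.54 to 9.11 in midbrain (-1.43 and -1.28).

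The Mir9 transcripts went the other way between the wild-type tissues. Mir9-3hg was at 139 to 145 CPM in the 4 forebrain and 54.3 to 60.2 CPM in the 4 midbrain libraries (log2 differences of 1.29 and 1.36). C130071C03Rik, the transcript across Mir9-2, was at 284 and 296 CPM in wild-type forebrain, 122 and 89.2 in knockout forebrain, 136 and 124 in wild-type midbrain, and 139 and 127 in knockout midbrain. Its span also overlaps Gm51268 and Gm52046, and without the strand setting it is not known how reads in the shared stretches were counted. It fell by 1.46 on the log2 scale in the hs267-853 knockout (adjusted p = 0.000133 by edgeR). In the same pools Actl6a had a log2 difference of -0.052, with the interval given above, Actl6b 0.048 and Ptbp1 0.012, and none of these 3 passed the threshold. The row Mir9-2, inside that transcript, was at 2.24 and 1.78 CPM in wild-type forebrain and 0.794 and 0.982 in knockout forebrain, on 14 to 33 counts, and did not pass (log2 difference -1.18, adjusted p = 0.984 by edgeR). Mir9-3, on 0 to 17 counts a library, was called higher in wild-type forebrain (3.33), a call lost without wild-type forebrain replicate 2 or wild-type midbrain replicate 1. Mir9-1, Mir124a-1 and Mir124a-3 had at most 5 counts in any library and were not tested.

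**Figure D5:**
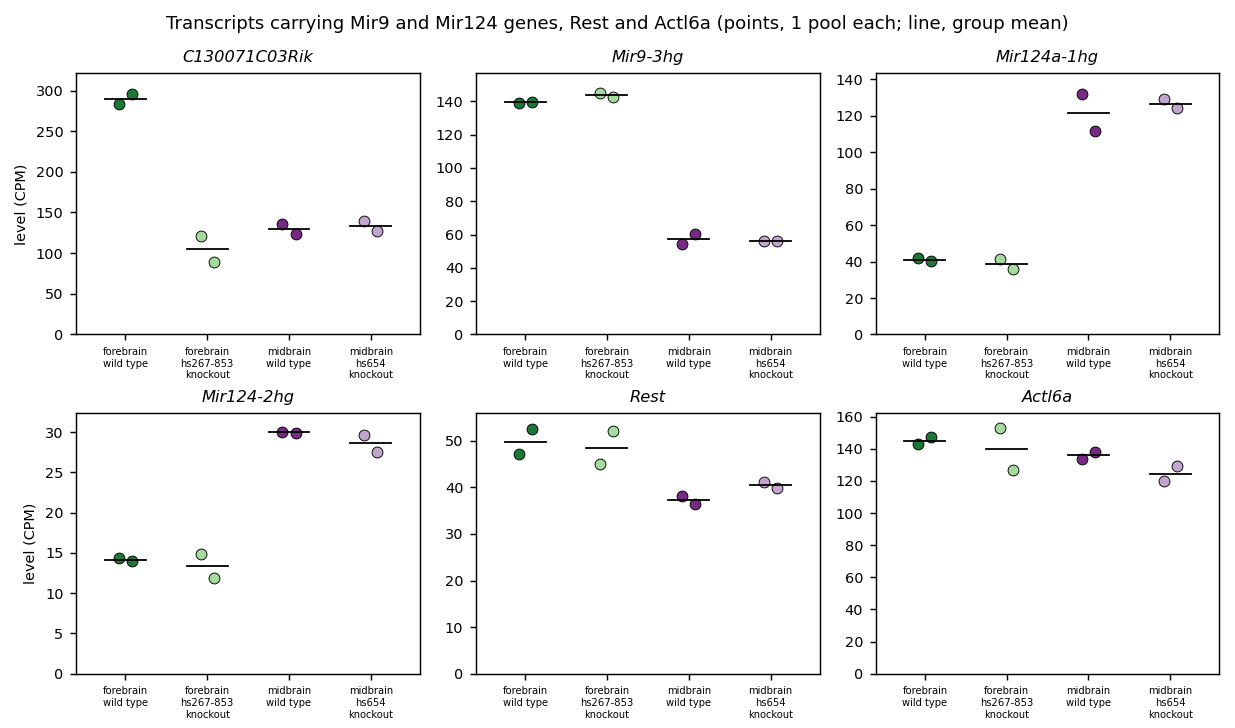
Level in CPM (vertical axes, each from 0) of transcripts that carry Mir9 and Mir124 genes, of Rest and of Actl6a in the 4 groups; points are single pools and lines are means of 2 pools. C130071C03Rik lies at 284 and 296 CPM in wild-type forebrain and at 122 and 89.2 in the hs267-853 knockout, while Actl6a overlaps between these groups.

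The other subunits of the BAF family, including those of its PBAF and non-canonical forms, split both ways between tissues, as did genes at large. Of 20 tested, 4 were higher and 3 lower in wild-type forebrain (median log2 difference 0.044), beside 14.3% and 15.3% of all genes. In knockout forebrain 4 were higher and 4 lower (median -0.026), beside 14.6% and 14.8% of all genes. In each knockout comparison 0 of 20 were called, beside 0% of all genes in midbrain and 0.0130% in forebrain. Bcl11a and Bcl11b, transcription factors of cortical neurons that bind the complex, were the furthest apart: Bcl11a at 132 and 146 CPM in wild-type forebrain and 58.2 and 60.6 in wild-type midbrain (1.23), Bcl11b at 62.7 and 85.0 against 27.9 and 31.6 (1.32). In the knockout tissues their differences were 0.87 and 1.13, both called. Smarcc1 (BAF155), the scaffold paralog of Smarcc2, was called higher in forebrain in both comparisons (0.20 and 0.23), where Smarcc2 was at -0.11 and -0.12. The Smarcc1 call was lost without wild-type forebrain replicate 2 or wild-type midbrain replicate 1 in the first comparison (adjusted p = 0.0758 and 0.0871 by edgeR), and without either knockout midbrain pool in the second (adjusted p = 0.0555 and 0.0556 by edgeR). Bicra, of the non-canonical form, was lower in wild-type forebrain (-0.44) and missed the threshold in the knockout tissues (-0.21, adjusted p = 0.0772 by edgeR). Pbrm1, the bromodomain subunit of PBAF, was lower in both (-0.25 and -0.20), and its second call was lost without knockout midbrain replicate 2 (-0.16, adjusted p = 0.179 by edgeR). Of 21 remodellers of the CHD, ISWI, INO80 and related families, 3 were higher and 5 lower in wild-type forebrain, with a median of -0.044. The shares of all genes in that comparison were 14.3% higher and 15.3% lower.

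The genes most like Actl6b over the 8 libraries were named by the root mean square difference of log2 CPM after centring each gene, among 11886 other genes with a mean of at least 5 CPM. They were Scrt1 (0.15), a neuronal zinc finger repressor, Svop (0.16), a synaptic vesicle protein, and Nsg2 (0.16), a neuronal endosomal protein. For Actl6a they were Ovca2 (0.037), Zcrb1 (0.040) and Ogg1 (0.041), a DNA repair enzyme. Actl6b and Ss18l1 lay 0.37 apart on this measure, with 3.61% of genes nearer to Actl6b than Ss18l1 was. The other neuronal forms lay further from Actl6b, Dpf1 at 0.65 (39.6% of genes nearer) and Dpf3 at 0.93 (94.3%). The scaffold Smarcc2 lay at 0.59 (22.7%) and the ATPase Smarca4 at 0.65 (39.1%), about level with Dpf1. The measure counts the size of a difference as well as its direction. Dpf3, lower in forebrain as Actl6b was but by more, thus lay far from it, while near-level genes lay nearer. These distances therefore do not show which genes share the direction of Actl6b. The 8 libraries share 2 tissues, so this likeness is mostly of 1 contrast.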

How the data were processed

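Poly(A) RNA of 8 brain libraries (4 groups of 2 pools) was used. The authors deposited raw counts per gene, made with STAR and HTSeq on mm10 per the submitters' processing notes, which also name DESeq2; strand setting and annotation are not given in the sources used here. The 5 rows that name no gene were left out. Genes took 40.7% to 44.1% of the reads counted as in a gene, in no gene or ambiguous between genes.

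Fold changes were computed from the deposited counts with edgeR 4.0.16 in R 4.3.3: filterByExpr, TMM, 1 quasi-likelihood fit of all 8 libraries, two-sided tests and Benjamini-Hochberg adjustment over 15383 genes. This fit was tested on simulated data. Each value was recomputed with other scalings (upper quartile, RLE), without the filter or with a minimum mean of 50 counts, with limma-voom (limma 3.58.1) or DESeq2 1.42.0, on the compared groups alone, with replicate number as a term, and omitting single libraries. Depth per library limits precision for low genes, Dpf3 above all.

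The members and lists were chosen with earlier results of these data known. All 10 members were named, with Rest, the microRNA genes, listed genes past the threshold, and the 3 genes nearest Actl6b and Actl6a. Levels per gene length could not be computed.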

Additional observations from a re-analysis of the deposited data

Results flagged for a closer look

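The 2 knockout effects are of different enhancers in different tissues, so the parts of enhancer and tissue cannot be told apart. On C130071C03Rik, the transcript across Mir9-2, they differed by 1.49 on the log2 scale (midbrain effect minus forebrain effect, SE 0.157, adjusted p = 0.00611 by edgeR's quasi-likelihood test). This difference drew attention because it was itself tested. It was 1.44 (adjusted p = 0.0582 by edgeR) without knockout midbrain replicate 1 and 1.55 (adjusted p = 0.0640 by edgeR) without replicate 2. No value of the 10 subunits was singled out in this way.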

How the results depend on the processing

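Of 790 member values under other settings, 751 kept their direction and their side of the threshold. Most of the 790 were differences not called to begin with, so staying uncalled says little about stability. Of the called differences, those between the wild-type tissues kept their side in 12 of 16 settings for Actl6b and 15 of 16 for Ss18l1. Leaving out 1 library at a time, the number of subunits called ran from 1 (19.0% of all genes called) to 3 between the wild-type tissues and from 3 to 6 (27.1% of all genes called) between the knockout tissues, and it was 0 throughout in the knockout comparisons and in the difference between them. With a mean of at least 50 counts it was 4 between the knockout tissues (32.1% of all genes called), with Smarcc2 added (-0.16, adjusted p = 0.0319 by edgeR). Dpf3 was called in both tissue comparisons under all 16 settings, and Actl6b and Ss18l1 in the knockout tissues under all 16.

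Signs changed only for differences that were not called. Under limma-voom Actl6b was at -0.027 in the forebrain knockout, and with a mean of at least 50 counts Dpf1 was at -0.0062 between knockout tissues. With 1 library left out, values in the forebrain knockout ran from -0.20 to 0.077 (Actl6a), -0.64 to 0.49 (Actl6b), -0.15 to 0.21 (Dpf1), -0.011 to 0.12 (Phf10), -0.12 to 0.066 (Smarca2), -0.036 to 0.10 (Smarca4) and -0.080 to 0.061 (Ss18). Between knockout tissues they ran from -0.16 to 0.20 (Dpf1), -0.070 to 0.027 (Smarca2) and -0.069 to 0.067 (Smarca4), and between wild-type tissues from -0.0092 to 0.048 (Phf10). For the difference between knockout effects they ran from -0.20 to 0.070 (Actl6a), -0.026 to 1.10 (Actl6b), -0.019 to 0.34 (Dpf1), -0.037 to 0.068 (Smarcc2) and -0.13 to 0.0093 (Ss18). The cause of these changes was not tested beyond the smaller number of samples.

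With no filter on low counts the genes called over the whole table were 22 in the midbrain knockout, 161 in the forebrain knockout and 111 for the difference, against 0, 2 and 1, with no subunit among them. Same-numbered replicates did not deviate together (correlations of -0.025 to 0.067 over 6 pairs of groups). With the replicate block the numbers of subunits called were 3, 3, 0, 0 and 0, as without it. The shares of all genes called were then 29.3%, 29.4%, 0%, 0.0195% and 0.0065%. With 2 pools a group and 17 to 59 counts of Dpf3 in forebrain libraries, small changes of the low subunits are not detectable.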
